A study of Mus musculus with 69 samples.

Results

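Lungs of 5 mice that had received 18 µg of NRCWE-001 were compared with lungs of 4 mice that had received vehicle alone, all taken on day 28 after a single intratracheal instillation. NRCWE-001 is the unmodified titanium dioxide (TiO2) nanoparticle of the study, and 18 µg was its lowest dose. The members were chosen by the labels of the arrays, which name the particle, the day and the dose, and these 9 arrays are 9 of the 69 in the series. The other arrays of day 28 held 54 and 162 µg of NRCWE-001 and 18, 54 and 162 µg of NRCWE-002. NRCWE-002 is a TiO2 particle with a positively charged surface. The arrays of day 1 held vehicle and 18, 54 and 162 µg of either particle. All mice were female C57BL/6, 5 to 7 weeks old on arrival and acclimatised for 1 to 3 weeks. Particles were dispersed in water with 2% serum, and the titles of the vehicle arrays name the control H2O. Each array held the RNA of a small frozen piece of the lung of 1 mouse, labelled with Cy5, against a commercial Universal Mouse Reference RNA labelled with Cy3, with no dye swap. Every level below is a log2 ratio of lung to reference RNA, so levels are compared between groups and not between genes, and a change is a difference of such ratios.

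Of the 9 arrays, the 5 exposed ones lay on slides 6, 7, 11, 13 and 18, and the 4 vehicle ones on slides 2, 6, 7 and 9. The slides that held both groups were thus 2, slides 6 and 7, with 1 exposed and 1 vehicle lung on each. Between 61.4% and 87.4% of spots were well above background in the sample channel of the exposed arrays, against 65.2% to 69.3% in vehicle arrays. The highest share belonged to exposed replicate 3 on slide 11, and the other 4 exposed arrays were below every vehicle array. The part of this difference in signal in the results was not tested. Markers of the lung were high, with a mean log2 ratio over 8 genes of alveolar type 2 cells of 4.15 to 4.90 in exposed and 4.80 to 4.91 in vehicle lungs. Markers of cardiac muscle and of airway secretory cells differed in level between mice. The mean over 9 genes of cardiac muscle ran from 0.24 to 3.19 in exposed and from 0.31 to 2.60 in vehicle lungs, and 9 of 9 had a positive change (median 1.17). The mean over 6 genes of airway secretory cells ran from 3.33 to 5.92 against 2.78 to 5.56, with a median change of 1.96. No member of the 17 cell type lists passed the test in this comparison, and the part of these cells in the results below was not tested. In such whole pieces, fewer cells of a type and less RNA per cell cannot be told apart.

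The 3 genes with the smallest p-values, and 4 of the 33 genes called, belong to the cytosolic heat shock response. In this response the transcription factor HSF1 is released when proteins unfold, binds heat shock elements in promoters and drives the synthesis of chaperones. The inducible Hsp70 proteins, encoded in the mouse by the neighbouring genes Hspa1a and Hspa1b, hold unfolded proteins, Hsp110 (Hsph1) recharges Hsp70 by exchanging its nucleotide, Hsp40 proteins deliver clients to Hsp70, and Hsp90 with its co-chaperones acts on later folding steps. In lung the inducible members are low at rest and are known to rise with fever, oxidants and metals.

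The promoters of the 3 heat shock genes with the smallest p-values are shown because all 3 transcripts were called higher. They are the 250 bases before the start site in RefSeq (build GRCm38.p6), read 5′ to 3′ on the minus strand, on which all 3 genes lie, and capitals mark the matches to GAANNTTC or TTCNNGAA, the core of a heat shock element. The positions are chr17:34972157-34972406 for Hspa1a, chr17:34959239-34959488 for Hspa1b and chr5:149636337-149636586 for Hsph1, the last being 1 of 2 promoters listed for the gene.
Hspa1a: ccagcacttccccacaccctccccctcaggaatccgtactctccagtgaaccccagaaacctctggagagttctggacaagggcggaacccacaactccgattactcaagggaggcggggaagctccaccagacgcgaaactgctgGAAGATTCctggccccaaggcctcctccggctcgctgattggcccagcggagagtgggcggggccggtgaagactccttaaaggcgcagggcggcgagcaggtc
Hspa1b: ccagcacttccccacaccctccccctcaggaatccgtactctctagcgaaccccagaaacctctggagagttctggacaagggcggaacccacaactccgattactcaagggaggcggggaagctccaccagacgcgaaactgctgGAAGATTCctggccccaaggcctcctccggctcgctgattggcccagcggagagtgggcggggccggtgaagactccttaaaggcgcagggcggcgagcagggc
Hsph1: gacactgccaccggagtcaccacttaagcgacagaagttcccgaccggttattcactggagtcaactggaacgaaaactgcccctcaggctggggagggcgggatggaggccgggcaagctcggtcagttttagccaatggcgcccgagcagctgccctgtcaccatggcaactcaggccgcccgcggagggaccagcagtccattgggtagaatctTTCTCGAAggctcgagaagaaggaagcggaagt
Hspa1a and Hspa1b differed at 3 of 250 bases (98.8% identical), and the match GAAGATTC lay 104 to 97 bases before the start in both. In Hsph1 the match TTCTCGAA lay 33 to 26 bases before the start. Each of the 2 patterns is its own reverse complement, so a match on either strand is a match on the other. Such a match was held by 4218 of all 32851 promoters (12.8%), by 9 of the 22 heat shock genes that had a promoter in the table (40.9%), by 4 of 16 genes called higher and by 3 of 11 called lower. A longer form of 3 alternating GAA and TTC units, each separated by any 2 bases, was held by 153 of all promoters (0.466%) and by Hspd1 and Hspe1 among the heat shock genes. These matches describe letters and not bound sites.

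The first question was which genes the lowest dose changed. Limma called 33 of 17628 genes at an adjusted p below 0.05 (0.187%), 20 higher (0.113%) and 13 lower (0.0737%) in exposed lungs, and 5 of them changed past 2-fold. An unadjusted p below 0.05 was reached by 1436 genes (8.15%). For 27 of the 33, all 5 exposed lungs lay on one side of all 4 vehicle lungs, which held for 475 of all genes (2.69%). The 33 were called by the difference between these same lungs, so this count is a description. The count rested on single lungs. It was 9 without vehicle replicate 1, 12 without vehicle replicate 4, 19 without vehicle replicate 2, and 17, 18 and 20 without exposed replicates 1, 3 and 5. Of the 29 called genes followed through these fits, 5 were called without any single array, namely Hspa1a, Hspa1b, Hsph1, Slc25a33 and Mmp11. Beyond the sex, strain, age and acclimatisation given above, the labels say of the mice only that each array held a separate animal. The p-values thus rest on the spread between mice, arrays and slides together, taken within the groups of all 69 arrays. With the spread of the 9 arrays alone, or of the arrays of day 28 alone, 3 genes were called.

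Hspa1a, an inducible Hsp70, had the largest change. Its log2 ratio was 3.14, 3.03, 3.05, 2.74 and 2.80 in exposed replicates 1 to 5 and 0.97, 0.21, 1.33 and 0.89 in vehicle replicates 1 to 4. Every exposed lung was above every vehicle lung, and the exposed lungs were closer together (2.95 ± 0.17, SD, n = 5) than the vehicle lungs (0.85 ± 0.47, n = 4). The log2 fold change of Hspa1a was 2.10 ± 0.21 (SE; 4.29-fold) (limma, adjusted p = 4.249e-10). An exact permutation test over the 9 arrays, 2-sided, gave p = 0.00794, the smallest that 126 splits allow. Hspa1a was singled out with earlier results of these data known, so this p only restates the separation of the groups. Such a separation, in either direction, was seen for 475 of all genes (2.69%). Both probes of Hspa1a gave similar changes, 2.11 and 2.09. Without single arrays the change of Hspa1a ran from 1.89, without vehicle replicate 2, to 2.26, without vehicle replicate 3.

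Hspa1b, the neighbouring Hsp70 gene, was at 1.23, 1.02, 0.89, 0.78 and 0.81 in exposed and at -0.05, -0.02, 0.04 and -0.14 in vehicle lungs. The groups did not overlap, and the lowest exposed lung stood well clear of the highest vehicle lung. Hspa1b rose by 0.99 ± 0.11 on the log2 scale (1.98-fold; adjusted p = 5.027e-09). Its 2 probes differed, at 1.57 and 0.40, and the probe with the smaller change was well above background on 2 of 4 vehicle arrays. The change of Hspa1b was 1.85 with the scanner software's processed signals. Hspa1a and Hspa1b are near-identical copies, and how far a probe of one also reads the other was not tested.

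Hsph1, the Hsp110 nucleotide exchange factor of Hsp70, was at 0.57, 0.34, 0.39, 0.07 and 0.14 in exposed lungs and at -1.07, -1.37, -0.77 and -1.30 in vehicle lungs. Again every exposed lung was the higher. The change of Hsph1 was 1.43 ± 0.20 (2.70-fold; adjusted p = 1.016e-05). Chordc1, a co-chaperone of Hsp90, was at 0.83, 0.64, 0.53, 0.48 and 0.60 against 0.05, 0.18, 0.30 and 0.18, again without overlap. It rose by 0.44 ± 0.09 (adjusted p = 0.018), with 0.63 and 0.24 for its separate probes. The call was lost in 4 of 9 fits without 1 array (adjusted p up to 0.15), those without vehicle replicates 1, 2 or 4 or exposed replicate 1.

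**Figure D1:**
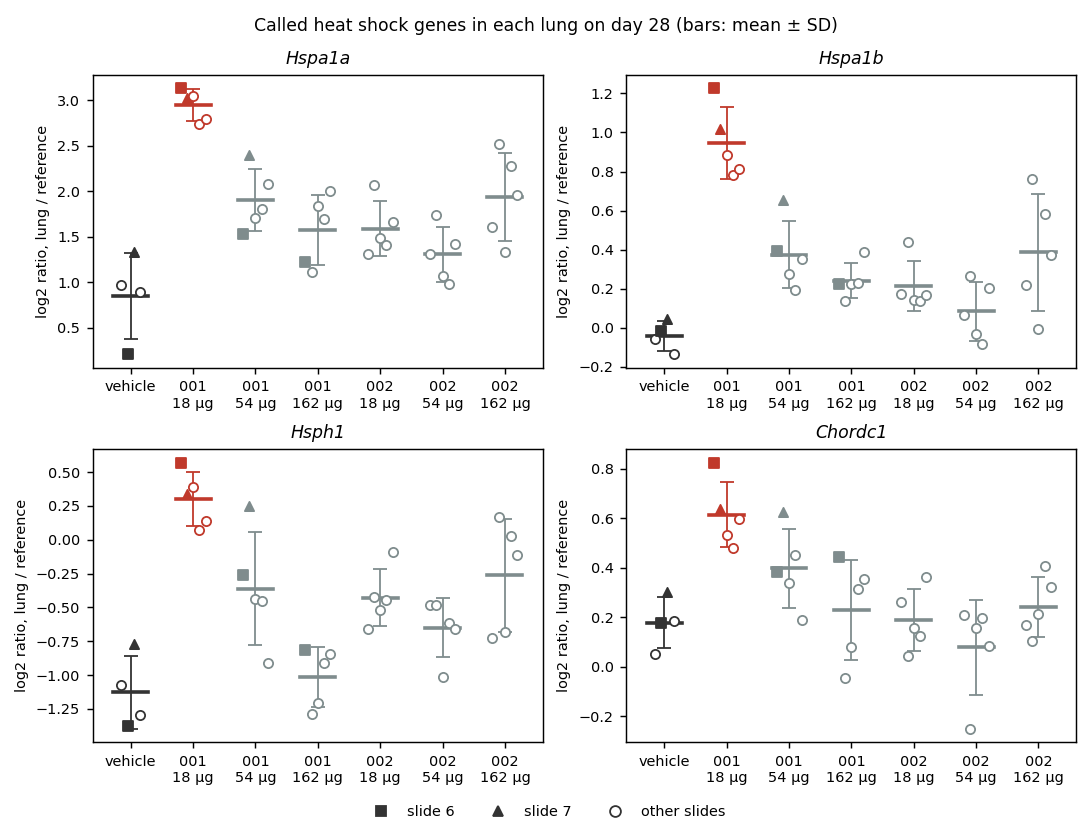
Log2 ratio of lung to reference RNA of Hspa1a, Hspa1b, Hsph1 and Chordc1 in each lung of day 28 (1 point a mouse, horizontal bars the mean, error bars ± SD), with the vehicle in black, 18 µg of NRCWE-001 in red, the other groups in grey, and slides 6 and 7 as squares and triangles. The 5 red points of Hspa1a, from 2.74 to 3.14, lie above the points of all other groups, and the highest of those is 2.52.

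The heat shock list held 30 genes, of which 29 were tested (Dnajb5 was not). The list was chosen with earlier results of these data known. These 4 were called higher and 0 lower, against 0.187% of all genes. An unadjusted p below 0.05 with a positive change was reached by 14 of the 29, against 528 of all 17628 genes. A positive change was seen in 24 of 29, against 8132 of the 17628, with a median of 0.30 against -0.01 over all genes tested. The mean level over the list was -0.05 to 0.27 in exposed and -0.34 to -0.21 in vehicle lungs, so the groups did not overlap. Among the members that did not pass the test, the Hsp40 gene Dnajb1 had a change of 0.55 ± 0.14 (adjusted p = 0.0849), with -0.51 to 0.05 in exposed and -0.95 to -0.44 in vehicle lungs. Values of 0.47 were seen for another Hsp40, Dnaja1, and for Cacybp, which binds ubiquitin ligases. Bag3, a nucleotide exchange factor, was at 0.31, the small heat shock protein Hspb1 at 0.34, inducible Hsp90 (Hsp90aa1) at 0.35, and the mitochondrial pair Hspd1 and Hspe1 at 0.28 and 0.35. St13 was at 0.26, Hspb8 at 0.11, constitutive Hsp90 (Hsp90ab1) at 0.05, Cryab at -0.04 and Hsf1 itself at -0.04. Hsf2, a relative of Hsf1, was well above background on 1 of 5 exposed and 0 of 4 vehicle arrays and is given no value. The ubiquitin gene Ubb had -0.16.

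For Hspa8, the constitutive Hsc70, slide 6 stood apart in 4 groups of day 28. Its change was 0.51 with a wide SE of 0.30 (adjusted p = 0.719). Its levels on slide 6 were 0.07 in the exposed and -0.66 in the vehicle lung, -0.31 at 54 µg and -0.30 at 162 µg, each the highest of its group, while the other lungs of these 4 groups were at -0.78 or below.

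**Figure D2:**
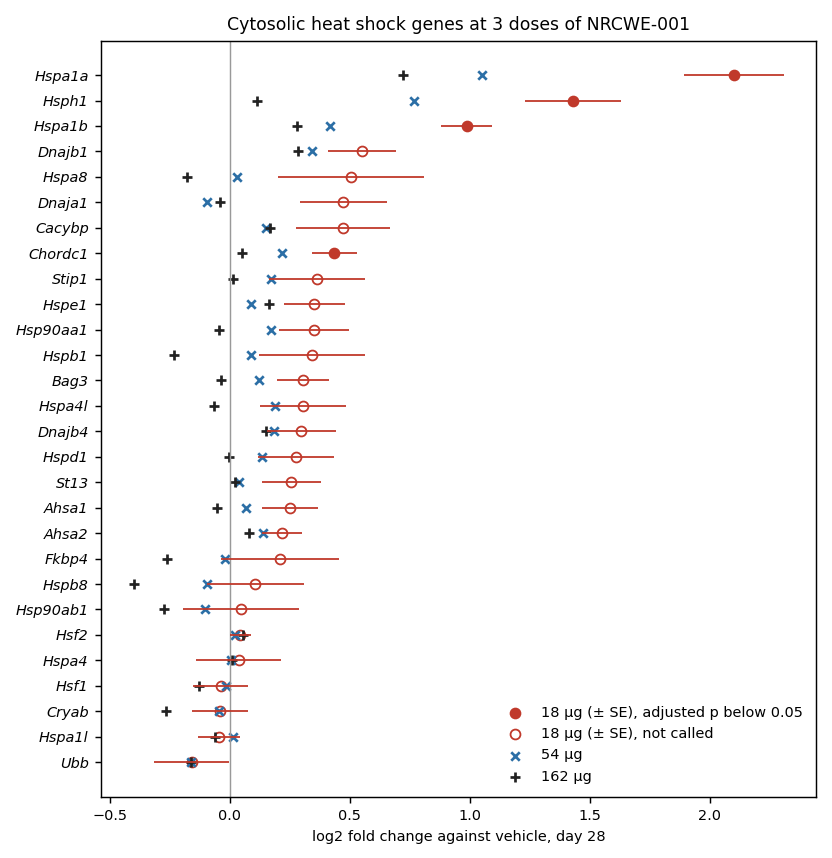
Log2 fold change against vehicle on day 28 of 28 of the 29 heat shock genes tested, at 18 µg (red circles with bars ± SE, filled where the adjusted p was below 0.05), 54 µg (blue crosses) and 162 µg (black plus signs) of NRCWE-001, which share the vehicle arrays. The filled circles are Hspa1a at 2.10, Hsph1 at 1.43, Hspa1b at 0.99 and Chordc1 at 0.44. Hsf2 was not well above background in any vehicle lung.

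Herpud1 and Cirbp, of other lists, were also called. Herpud1, a membrane protein of endoplasmic reticulum-associated degradation, was at 1.38, 1.60, 1.96, 1.66 and 1.70 in exposed and 0.90, 0.58, 1.38 and 0.92 in vehicle lungs. The lowest exposed lung and vehicle replicate 3 were both at 1.38. Herpud1 rose by 0.72 ± 0.13 (1.65-fold; adjusted p = 0.00419), a call lost without vehicle replicate 2 (adjusted p = 0.0534). It was the 1 called member of 21 tested genes of the endoplasmic reticulum chaperones and unfolded protein response, beside 0.187% of all genes. The median change of that list was 0.15, against -0.01 over all genes. Cirbp, a cold-inducible RNA-binding protein known to fall with heat, was at 0.75, 0.52, 0.30, 1.03 and 0.97 in exposed and 1.67, 1.43, 1.10 and 1.47 in vehicle lungs. All exposed lungs were lower, and Cirbp fell by 0.70 ± 0.16 on the log2 scale (adjusted p = 0.0416), a call lost in 6 of 9 fits without 1 array, those without vehicle replicates 1, 2 or 4 or exposed replicates 1, 2 or 3 (adjusted p up to 0.269). The related Rbm3, the other member of the cold-inducible list, was level, at -0.53 in both groups.

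Several transcription factors and signalling genes were called higher. Srf, the serum response factor, was at 0.84, 0.37, 0.38, 0.64 and 0.44 in exposed and 0.05, 0.22, 0.06 and 0.10 in vehicle lungs, a change of 0.42 ± 0.09 (adjusted p = 0.0116). Creb5, a CRE-binding factor, was at -0.26, 0.25, -0.15, 0.35 and 0.46 against -0.76, -1.04, -0.69 and -0.61, a change of 0.90 ± 0.18 (adjusted p = 0.0121). In both genes the groups did not overlap. Jdp2, a repressor of AP-1, rose by 0.41 ± 0.09 (adjusted p = 0.0178), with 0.82 to 1.03 against 0.32 to 0.71. Maff, a small Maf factor that pairs with Nrf2, had a larger change of 0.99 ± 0.23 (adjusted p = 0.0374) but overlapping groups, at -0.79 to 0.19 in exposed and -2.05 to -0.55 in vehicle lungs. Banp, a nuclear matrix protein, likewise overlapped (change 0.75), at -0.49 to 0.11 against -1.74 to -0.36. Its change was 0.46 without vehicle replicate 2, and its call was lost in 6 of 9 fits without 1 array, those without vehicle replicates 1 or 2 or exposed replicates 2, 3, 4 or 5 (adjusted p up to 0.217). Maff, Adamts9 and Tyw3 fell outside the rule for naming genes and were named after their values were seen. The calls of Srf, Jdp2 and Creb5 were lost in 2, 2 and 3 of 9 fits without 1 array, vehicle replicate 1 among them each time (adjusted p up to 0.0778, 0.102 and 0.0708).

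Of the remaining genes called higher, Tspan4, a tetraspanin, had 0.76, 0.47, 0.50, 0.37 and 0.28 in exposed and -0.27, -0.32, -0.11 and -0.34 in vehicle lungs. The groups were separate, and Tspan4 rose by 0.73 ± 0.15 (adjusted p = 0.0137), a call lost without vehicle replicates 1, 2 or 4 or exposed replicate 1 (adjusted p up to 0.089). Slc25a33, a mitochondrial carrier of pyrimidine nucleotides, was at -0.45, -0.16, -0.23, -0.44 and -0.35 against -0.79, -1.01, -0.66 and -0.77, a change of 0.48 ± 0.09 (adjusted p = 0.00215). Mthfd1l, an enzyme of mitochondrial folate metabolism, was at -3.39 to -2.85 against -4.01 to -3.54, a change of 0.64 ± 0.13 (adjusted p = 0.0137). Ccbe1, a secreted protein of lymphatic growth, had -0.23 to -0.07 against -0.82 to -0.48 and a change of 0.54 ± 0.11 (adjusted p = 0.0116). In these 3 genes too every exposed lung was the higher. Mthfd1l and Ccbe1 lost their calls in 3 and 2 of 9 fits without 1 array (adjusted p up to 0.0902 and 0.089). With scale normalization between arrays Mthfd1l was at 0.26 and not called. The phosphatase Mtmr4 and the protease Adamts9 rose by 0.39 and 0.42, the 2 probes of Adamts9 giving 0.72 and 0.11. Tyw3, a tRNA modification enzyme, was called higher but was well above background on 1 of 5 exposed and 0 of 4 vehicle arrays, so no fold is given for it.

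The 13 genes called lower shared no list. Mmp11, the matrix protease stromelysin-3, had the smallest p of them. It was at -0.26, -0.26, -0.65, -0.37 and -0.53 in exposed and 0.04, 0.28, -0.01 and 0.18 in vehicle lungs, a change of -0.53 ± 0.09 (adjusted p = 0.00146) without overlap. Prdm8, a PR domain protein of the histone methyltransferase family, had the largest decrease, -1.32 ± 0.27 (adjusted p = 0.0136). It was at 1.02, 1.76, 1.23, 1.49 and 1.45 against 3.22, 2.15, 2.20 and 3.24, so that the vehicle lungs on slides 6 and 7 were the lower ones of their group. Acot1, an acyl-CoA thioesterase induced by fasting, was at 1.21, 0.72, 0.59, 1.24 and 0.90 against 1.50, 2.10, 1.98 and 1.75, a change of -0.90 ± 0.18 (adjusted p = 0.0121). It was the 1 called member of 13 PPARα and fasting targets, beside 0.187% of all genes. Their median was -0.22, with 3 of the 13 positive and a range from -0.90 to 1.37. Mical1, which oxidises actin, was at 1.11 to 1.48 against 1.67 to 1.83 (-0.43 ± 0.09, adjusted p = 0.0116), and Clec9a, a receptor of cross-presenting dendritic cells, at 0.04 to 0.21 against 0.40 to 0.48 (-0.31 ± 0.07, adjusted p = 0.04). Clec9a was well above background on 2 of 5 exposed and 4 of 4 vehicle arrays, and the call was lost under 8 of 15 alternatives, one of which, the processed signals, gave -1.44. The others named here were Accs, Esyt3, Slc45a4, Mpzl1, B3gnt5, Ppfibp2 and Cirbp, between -0.70 and -0.37. In single-array fits Acot1 was lost in 2 of 9, Prdm8 and Mical1 in 3, Accs in 4, B3gnt5 in 6, Mpzl1, Esyt3, Ppfibp2 and Clec9a in 7 and Slc45a4 in 8 (adjusted p up to 0.0708 for Acot1, 0.132 for Clec9a and 0.543 for B3gnt5). Ppfibp2 was also lost under 11 of 15 alternatives.

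Genes of the circadian clock and of the glucocorticoid response made up a further group. Per1 and Per2, repressors of the clock that are also induced by stress hormones, and Tsc22d3 (GILZ), a glucocorticoid-induced inhibitor of inflammation, were called higher. Per1 was at 1.40, 1.28, 1.72, 0.87 and 1.50 in exposed and -0.13, -0.15, 1.48 and -0.77 in vehicle lungs. Vehicle replicate 3, on slide 7, was as high as the exposed lungs, and the groups overlapped. The change of Per1 was 1.25 ± 0.29 (2.37-fold; adjusted p = 0.0462), and the call was lost in 7 of 9 fits, those without vehicle replicates 1, 2 or 4 or exposed replicates 1, 2, 3 or 5 (adjusted p up to 0.39). Per2 was at 0.95, 1.09, 0.94, 1.03 and 1.09 against 0.46, 0.02, 0.80 and 0.48, without overlap. It rose by 0.58 ± 0.13 (adjusted p = 0.0303), a call that was kept in the fit without vehicle replicate 3 and lost in the other 8 (adjusted p up to 0.16). Tsc22d3 was at 2.77, 2.73, 2.46, 2.36 and 3.01 against 1.12, 1.64, 2.41 and 1.18, where replicate 3 again reached the exposed range. Its change was 1.08 ± 0.23 (2.11-fold; adjusted p = 0.0213), lost in 5 of 9 fits, those without vehicle replicates 1, 2 or 4 or exposed replicates 1 or 5 (adjusted p up to 0.209).

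Over the clock list, 2 of 18 genes were called (0.187% of all genes) and 15 had a positive change, with a median of 0.20, and the list mean was 0.45 to 0.60 in exposed against 0.13 to 0.37 in vehicle lungs. Over the glucocorticoid list, which shares Per1, 2 of 15 were called (against the same 0.187%) with a median of 0.46, and the list means overlapped (0.35 to 0.75 against -0.09 to 0.75). Fkbp5, a co-chaperone of the glucocorticoid receptor, had 0.46 (adjusted p = 0.0992) and was called with slide as a fixed block. The time of day at which lungs were taken is not given in the sources used here, and its part in these values was not tested.

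**Figure D3:**
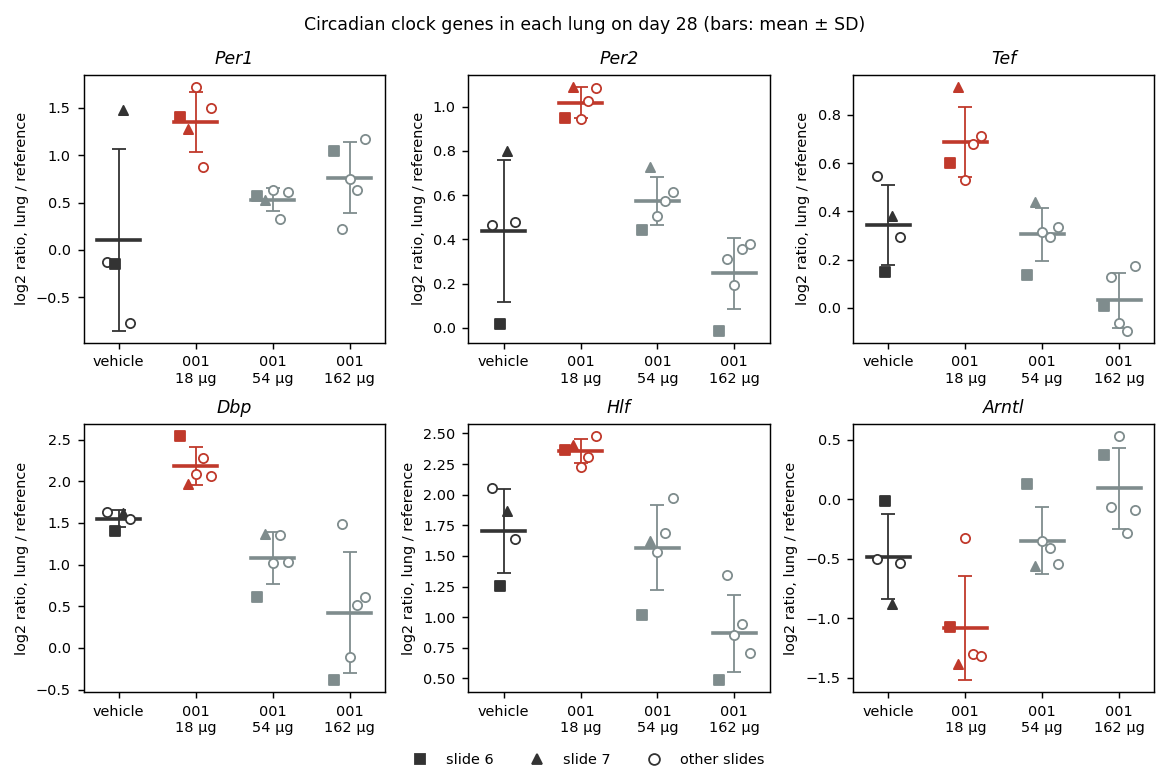
Log2 ratio of lung to reference RNA of 6 clock genes in each lung of day 28, with vehicle in black, 18 µg of NRCWE-001 in red and 54 and 162 µg in grey (horizontal bars the mean, error bars ± SD, slides 6 and 7 as squares and triangles). For Per1 the vehicle lung on slide 7 (1.48) lies among the red points, and for Tef, Dbp and Hlf the 162 µg group lies below the red points.

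Lists on which nanoparticle studies usually turn had 0 called members here, beside the 0.187% of all genes and the 1436 genes with an unadjusted p below 0.05. Over 26 acute-phase and inflammatory genes the median change was 0.09, over 15 interferon-stimulated genes -0.06, over 15 Nrf2 targets 0.10, over 14 p53 targets 0.09, over 16 proliferation genes -0.05, over 14 collagen and matrix genes 0.02, and over 25 immediate early genes 0.13. At an unadjusted p below 0.05 the inflammatory, interferon and proliferation lists had 0 members. The immediate early list had 2 higher and 2 lower, the collagen and matrix list 1 and 1, and the Nrf2 and p53 lists 1 higher each. The 14 hypoxia and 16 respiratory chain genes had medians of 0.10 and 0.06, and 12 nuclear and splicing-related transcripts one of -0.32, with 3 of them lower at an unadjusted p below 0.05. None of the 10 biclusters, gene groups that the study had drawn from other mouse lung disease data, held a called gene, in the fit without slides (with slide as a block Gpr155 of Bicluster 10 was called higher), with medians from -0.19 (Bicluster 8) to 0.66 (Bicluster 9, which holds cardiac and skeletal muscle genes). Among the cell markers, B and plasma cells stood lowest, with a median of -0.61 over 7 genes and 4 of them lower at an unadjusted p below 0.05.

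The second question was whether these differences followed the slide. When each slide was given its own term in the fit (a fixed block), 91 genes were called (0.516%), 51 higher and 40 lower, and 28 of the 33 were among them. All 33 kept their sign. The 5 genes not called with the block were Per1 (1.31, adjusted p = 0.0661), Clec9a (-0.26, adjusted p = 0.104), B3gnt5 (-0.36, adjusted p = 0.0689), Ppfibp2 (-0.46, adjusted p = 0.142) and Tyw3. The Hspa1a change was 2.06, that of Hspa1b 0.95 and that of Hsph1 1.36. The heat shock list then had 8 called members, the earlier 4 and Dnaja1 (0.61, adjusted p = 0.0179), Dnajb1 (0.53, adjusted p = 0.043), Dnajb4 (0.42, adjusted p = 0.0159) and Cacybp (0.51, adjusted p = 0.0377), all higher. In the clock list 3 members were then called, Per2, Tef and Ciart, and in the glucocorticoid list 2, Fkbp5 and Tsc22d3, all higher. Among the genes called with the block alone, those with the smallest p were Plxna2 (a semaphorin receptor; 0.67), Coq10b (a coenzyme Q binding protein; 0.78), N4bp3 (0.59), Tlnrd1 (0.43) and Tshz3 (0.46) on the higher side and Ralgds (an activator of Ral GTPases; -0.40), Zfp414 (-0.33), Mthfs (-0.32), Rab19 (-0.48) and Rtkn (-0.44) on the lower.

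On each shared slide 1 exposed lung was set against 1 vehicle lung, so these are values without a test. On slide 6 all 33 genes differed in the direction of the fit, and on slide 7 it was 32, Per1 being the exception at -0.20. Hspa1a was higher in the exposed lung by 2.93 on slide 6 and by 1.70 on slide 7, Hsph1 by 1.94 and 1.11, Hspa1b by 1.25 and 0.98, Chordc1 by 0.65 and 0.33, and Herpud1 by 0.80 and 0.23. The difference of Slc25a33 was 0.56 and 0.50, and that of Acot1 was -0.89 and -1.26. Slide 6 gave the larger difference for most heat shock genes, with the vehicle lung of that slide the lowest of its group for Hspa1a and Hsph1 and the vehicle lung of slide 7 the highest. These lungs also enter the fit, so the within-slide values are a part of it and not a second sample.

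**Figure D4:**
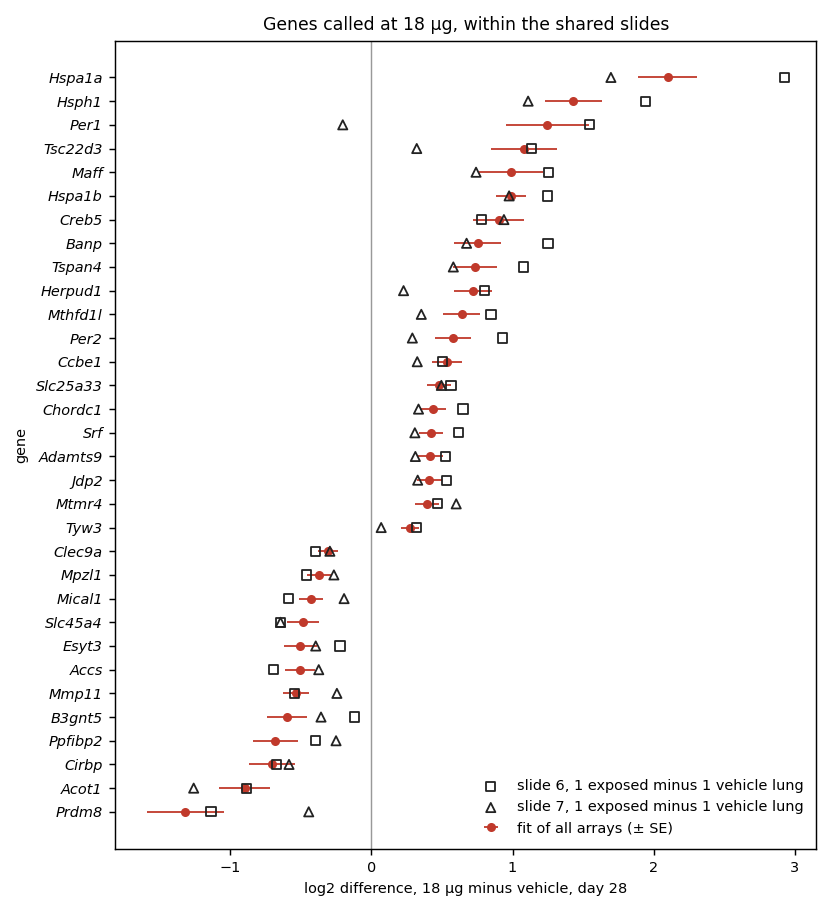
Log2 difference of 18 µg from vehicle for 32 of the 33 called genes in the fit of all arrays (red, ± SE) and between the 1 exposed and 1 vehicle lung on slide 6 (squares) and on slide 7 (triangles). All squares and all triangles but that of Per1 (-0.20) lie on the side of zero where the red point lies.

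The third question was whether the higher doses showed the same changes. They are given side by side, since all doses share the 4 vehicle arrays, and so are no independent readings of each other. Limma called 0 genes at 54 µg (508 at an unadjusted p below 0.05, 2.88%) and 8 (0.0454%) at 162 µg, none of them among the 33. With slide as a fixed block 0 were called at 162 µg, where 1517 had an unadjusted p below 0.05 without it. The change of Hspa1a was 1.05 ± 0.21 at 54 µg (adjusted p = 0.0835) and 0.72 ± 0.21 at 162 µg (adjusted p = 0.193), with levels of 1.53, 2.39, 1.70, 1.81 and 2.08 and of 1.22, 1.12, 1.83, 1.69 and 2.00. Its mean thus stood highest at the lowest dose and lowest at the highest, although the 54 and 162 µg lungs overlapped. Hsph1 changed by 0.77 and 0.11 and Hspa1b by 0.42 and 0.28, and Chordc1 by 0.22 and 0.05, none of them called. The median over the heat shock list was 0.30 at 18 µg, 0.09 at 54 µg and -0.04 at 162 µg. On slide 6, which held a lung of each dose, Hspa1a was at 0.21 in the vehicle, 3.14 at 18 µg, 1.53 at 54 µg and 1.22 at 162 µg.

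Against vehicle, 31 of the 33 genes had the same sign at 54 µg and 26 at 162 µg, and all 33 were smaller in size at both doses. The median of the ratio to the 18 µg change was 0.522 at 54 µg and 0.278 at 162 µg. Since the 33 were chosen by their change at 18 µg, these counts are a description. Tspan4 was among those of opposite sign, at -0.16 and -0.46, and Per2 was at 0.13 and -0.19. The acute-phase and inflammatory list had a median of 0.99 and the interferon-stimulated list one of 1.10 at 162 µg, with 0 members called there as at 18 µg.

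The doses were also compared directly, without the vehicle arrays. The 18 µg lungs by which the 33 were chosen enter these contrasts too, so the counts among the 33 are a description. Between 18 and 54 µg limma called 5 genes (0.0284%), all higher at 18 µg and all among the 33 (15.2% of them). They were Tspan4 (0.90 ± 0.14, adjusted p = 0.000973), Hspa1b (0.57 ± 0.10, adjusted p = 0.0044), Hspa1a (1.05 ± 0.20, adjusted p = 0.00748), Mthfd1l (0.67 ± 0.13, adjusted p = 0.00748) and Ccbe1 (0.49 ± 0.10, adjusted p = 0.0378). The lungs of the 2 doses did not overlap for any of the 5, which held for 0.681% of all genes. Since the 5 were called by these same lungs, this too is a description. The 54 µg lungs were at -0.52 to -0.35 for Tspan4 and at 0.20 to 0.65 for Hspa1b. The count was 2 without 54 µg replicate 1, where Mthfd1l was among the calls lost (adjusted p = 0.129). On the 3 slides that held both doses, 6, 7 and 13, Hspa1a was higher at 18 µg by 1.61, 0.63 and 1.03.

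Between 18 and 162 µg the difference was broader, with 166 genes called (0.942%), 67 higher (0.38%) and 99 lower (0.562%) at 18 µg. All 33 genes had the sign they had against vehicle, and 18 of them were called (54.5% of the 33 and 10.8% of the 166). Since the 33 were chosen by the same 18 µg lungs, these counts too are a description. Tspan4 led with 1.19 ± 0.14 (adjusted p = 3.402e-07), followed by Tef, a clock-controlled PAR bZIP factor, with 0.66 ± 0.08 (adjusted p = 7.047e-07). Hspa1a differed by 1.38 ± 0.20, Hsph1 by 1.32 ± 0.19 and Hspa1b by 0.71 ± 0.10, each with an adjusted p = 1.186e-05. On slides 6, 11 and 18, which held both doses, Hspa1a was higher at 18 µg by 1.92, 1.93 and 0.80 and Tspan4 by 1.60, 0.84 and 0.96. On the lower side the smallest p-values were those of Dtx4, an E3 ligase of the Notch pathway (-0.71 ± 0.11), Mical1 (-0.50 ± 0.08) and the corepressor Tle6 (-0.50 ± 0.08). The count moved with single lungs, to 412 and 299 without 162 µg replicates 2 and 3, 107, 57 and 67 without its replicates 1, 4 and 5, and 66, 84 and 92 without 18 µg replicates 1, 2 and 4.

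Clock genes were among those called in that contrast. Of 18, 7 were called higher and 2 lower at 18 µg (0.942% of all genes were called), and Per1 was not among them (0.59, adjusted p = 0.506). Dbp, a PAR bZIP factor driven by the clock, was at 2.54, 1.97, 2.09, 2.28 and 2.07 at 18 µg and at -0.39, 1.49, -0.10, 0.51 and 0.61 at 162 µg, with vehicle lungs at 1.41 to 1.63, a range that held the 162 µg lung at 1.49. It differed by 1.76 between the doses, and by 2.93, 0.60 and 1.46 on slides 6, 11 and 18. Hlf, a factor of the same family, differed by 1.49, Nr1d2, a repressor of the positive limb, by 0.95, Ciart by 0.84, Per2 by 0.77 and Nr1d1 by 0.39. Arntl (BMAL1), the activator of the clock, was lower at 18 µg by -1.18, with -1.08, -1.39, -0.33, -1.30 and -1.32 against 0.38, -0.06, 0.53, -0.28 and -0.09, and Nfil3 by -0.77. Against vehicle, Dbp, Hlf and Arntl were not called at 18 µg, at 0.64, 0.65 and -0.60. Spp1 (-2.04), Gpnmb (-1.95), Trem2 (-1.47) and the cathepsin Ctss (-1.45), named after their values were seen, were lower at 18 than at 162 µg, while their changes against vehicle at 18 µg were 0.09, 0.03, 0.08 and -0.25. Of the markers of macrophages and monocytes and of alveolar macrophages 0 were called in this contrast (medians -0.36 and 0.03).

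At the same dose and day the positively charged NRCWE-002 gave 0 called genes against vehicle (1064 at an unadjusted p below 0.05, 6.04%), with Hspa1a at 0.74, Hsph1 at 0.70, Hspa1b at 0.25 and Chordc1 at 0.01. At 162 µg of NRCWE-002, Hspa1a was the 1 called gene (0.00567%), with 1.09 ± 0.21 (adjusted p = 0.0434) and levels of 1.33 to 2.52. With slide as a fixed block it was not called, and the 1 gene called in its place was lower. In the direct comparison of the 2 particles at 18 µg, 21 genes were called (0.119%), 14 higher (0.0794%) and 7 lower (0.0397%) with NRCWE-001, among them 15 of the 33 (45.5% of these and 71.4% of the 21). The NRCWE-001 lungs are those by which the 33 were chosen, so this overlap is a description. Hspa1b differed by 0.73 ± 0.10 (adjusted p = 1.831e-05), Hspa1a by 1.36 ± 0.20 (adjusted p = 3.488e-05), Jdp2 by 0.48 ± 0.08 (adjusted p = 0.000814) and Chordc1 by 0.43 ± 0.09 (adjusted p = 0.0137), whereas Hsph1, at 0.73 ± 0.19, did not pass (adjusted p = 0.118). For Hspa1a the NRCWE-002 lungs were at 1.31, 2.07, 1.49, 1.40 and 1.66, all below the lungs given NRCWE-001, and on slide 13, which held both particles at this dose, the difference was 1.07. Lower with NRCWE-001 were Spon2, an extracellular matrix protein (-1.59 ± 0.27, adjusted p = 0.000814), Mical1 (-0.42 ± 0.08, adjusted p = 0.00606) and Ralgds (-0.57 ± 0.11, adjusted p = 0.00892). Spon2 was at -2.25 to -1.78 with NRCWE-001, at -1.11 to 1.20 with NRCWE-002 and at -1.13 to -0.41 with vehicle. The calls of Mical1 and Ralgds were lost without NRCWE-002 replicate 2 or NRCWE-001 replicate 1. That of Mical1 was lost under 6 of 15 alternatives, slide as a fixed block among them, and with median centring Mical1 was at -0.0403 and Ralgds at -0.22. The count was 10 without NRCWE-002 replicate 2, 12 and 14 without NRCWE-001 replicates 1 and 2, and 55 without NRCWE-002 replicate 3.

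**Figure D5:**
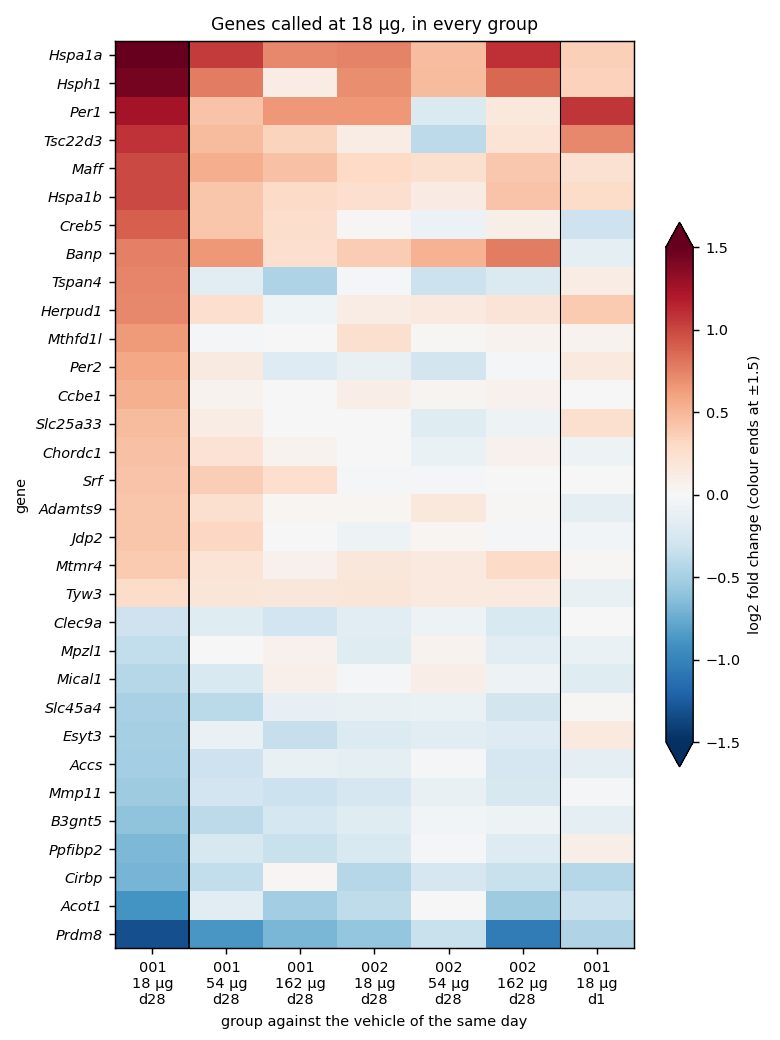
Log2 fold change against the vehicle of the same day (colour, ending at ± 1.5) of 32 of the 33 genes called at 18 µg of NRCWE-001 on day 28, in each group of day 28 and at 18 µg of NRCWE-001 on day 1. The columns of day 28 share the vehicle arrays. For all genes but Banp the first column, by which the genes were chosen, holds the largest change, and Hspa1a is at 1.05 at 54 µg and 1.09 at 162 µg of NRCWE-002.

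Set against every other array of the series, 3 of the 33 genes had all 5 exposed lungs beyond all 64 others, Hspa1a, Hspa1b and Slc25a33. Only the 33 genes, chosen by these same 5 lungs, were read in this way. The share among all genes was not counted, so the 3 are a description. For Hspa1a the lowest exposed lung was at 2.74 and the highest other array, 162 µg of NRCWE-002 on day 28 (replicate 2), at 2.52. For Hspa1b the corresponding values were 0.78 and 0.76, of the same replicate, so its margin was small.

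On day 1 the same dose of NRCWE-001 gave 0 called genes (865 at an unadjusted p below 0.05, 4.91%). Hspa1a was at 1.18, 1.98, 1.43, 1.06 and 1.08 in exposed and 1.03, 0.71, 0.94, 1.06 and 1.23 in vehicle lungs of day 1, which overlapped. Its change of 0.35 ± 0.20 on day 1 was smaller than that on day 28 by 1.75 ± 0.29 (adjusted p = 0.00166 for the difference of the 2 effects, which share no arrays), and Hspa1a was the 1 gene called for this difference (0.00567%). The count was 3 without 18 µg replicate 1 of day 28, and 2 without vehicle replicate 2 or 18 µg replicate 4 of day 28 or 18 µg replicate 2 of day 1. For Hspa1b the difference of the effects was 0.72 ± 0.15 (adjusted p = 0.0575), for Hsph1 1.08 ± 0.28 (adjusted p = 0.253) and for Chordc1 0.51 ± 0.13 (adjusted p = 0.249). Of the 33 genes, 21 had the same sign on day 1 and all 33 were smaller.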

How the data were processed

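Expression in lung was measured on 2-colour Agilent arrays, 1 mouse an array. The authors deposited the scanner's files, in which Agilent Feature Extraction had written a linear intensity and a local background for every spot of either channel, without normalization. They also deposited a table of log2 ratios of sample to reference after LOWESS, used here as an alternative, which correlated with the ratios computed here at 0.988 to 0.995 over the 9 arrays.

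Background was corrected by normexp (offset 50) and dyes by loess in limma 3.58.1 (R 4.3.3). Spots with an extreme local background (more than 10 median absolute deviations above or below the median, 0 to 470 an array) took no part in fitting the normexp curve. Control and outlier spots were left out, and 0 spots were saturated. Probes well above background on at least 4 of 69 arrays were kept (36452 of 41174). Accessions were matched to symbols in a RefSeq table of GRCm38.p6, which named 27479 probes, and a gene was the median over its probes (17628 genes, 11356 with 1 probe). The precision is limited by the number of arrays.

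Groups came from the labels. One limma fit held 14 group means of all 69 arrays, and genes with a 2-sided p below 0.05 after Benjamini-Hochberg adjustment over all genes of a contrast were called. The fit was checked on simulated data with independent noise and no slide effects, so this check does not cover differences between slides. Slides and scan days were read from the scanner output (18 and 12). Alternatives covered the background correction, normalization, source of the values, filters, probe choice, slide and scan day blocks, arrays in the fit, moderation, array weights and leaving out each array. Named genes were up to 15 called in each direction by p, called list members, 5 in each direction called with the slide block alone, the heat shock genes tested, and 3 in each direction of each direct contrast. The comparison, gene lists and marker lists were chosen with earlier results of these data known, and the bicluster lists came from the study. Promoters came from RefSeq. A comparison of the Hsp70 proteins was planned and not run. For 2 genes that enter the counts, single results are not reported here.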

Additional observations from a re-analysis of the deposited data

Results flagged for a closer look

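The effect of 18 µg of NRCWE-001 on Hspa1a differed between the days by 1.75 on the log2 scale (limma, adjusted p = 0.00166), as a test of the difference itself. It was 2.10 on day 28, where 5 of 5 exposed lungs lay above all vehicle lungs, and 0.35 on day 1, where the groups overlapped. Under the 14 alternatives run for it, the difference ran from 1.57 to 1.97, and without single arrays from 1.54 to 1.91.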

How the results depend on the processing

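No paired analysis was possible because the labels give no replicate numbers shared between the groups. Slide was used as a block instead. Hspa1a, Hspa1b and Hsph1 were called under all 15 alternatives run for each gene. The change of Hspa1a ran from 1.86 (array weights) to 2.34 (scale normalization), was 2.93 within slide 6 and 1.70 within slide 7, and ran from 1.89 to 2.26 without single arrays. Against vehicle, 33 genes (20 higher, 13 lower) became 18 (12 and 6) with median centring, 65 (44 and 21) with scale normalization, 91 with slide and 87 with scan day as a fixed block, 130 (61 and 69) with slide as a random block, 486 (152 and 334) with array weights, 3 with the 9 arrays or the arrays of day 28 alone, and 9 to 42 without single arrays. The split was 18 and 7 without background correction, 17 and 5 with the scanner software's processed signals and 24 and 10 with the authors' ratios. The heat shock list had 8 called genes with slide as a fixed block, 7 with the random block, with scan day and with array weights, and 3 to 5 without single arrays. Against 162 µg, 166 genes (67 higher, 99 lower) became 74 (20 and 54) with median centring, 330 (152 and 178) with scale normalization, 553 and 533 with slide and scan day fixed, 633 with slide random, 1196 (379 and 817) with array weights, 25 (22 and 3) with the arrays of the contrast, 36 (23 and 13) with those of day 28, and 57 to 412 without single arrays. Against 54 µg, 5 became 2 with median centring, 10 with scale normalization, 11, 18 and 15 with slide fixed, slide random and scan day, 15 with array weights, 2 and 1 with fewer arrays, and 2 to 6 without single arrays. Against NRCWE-002, 21 (14 higher, 7 lower) became 35 (34 and 1) with median centring, 53 (36 and 17) with scale normalization, 42 with slide random, 1 and 8 with fewer arrays, and 10 to 55 without single arrays. For the difference between days, 1 became 2 without background correction, with processed signals and with the authors' ratios, 10 with scale normalization, 3 with probes seen on 35 arrays, 5 with the brightest probe, 16, 30 and 14 with slide fixed, slide random and scan day, 4 with the contrast's arrays, 14 with array weights, and 1 to 3 without single arrays. Processed signals gave the largest changes for Hspa1b (1.85), Per2 (1.01), Ccbe1 (0.81), Chordc1 (0.66), Clec9a (-1.44), B3gnt5 (-1.25) and Esyt3 (-1.31), and scale normalization the smallest for Mthfd1l (0.26), Mical1 (-0.25) and Ppfibp2 (-0.31). The sign changed within slide 6 for Hspa1l (0.05) and Hsf1 (0.07) and within slide 7 for Per1 (-0.20), Hspa4 (-0.22), Cryab (0.23) and Ahsa1 (-0.0022). In the fits, the sign changed only for uncalled heat shock genes, of which those reported here were Hspa1l with processed signals (0.0774), Cryab with processed signals (0.0068), median centring (0.0803), scale normalization (0.25), the authors' ratios (0.0008), the brightest probe (0.061), slide fixed (0.0923), slide random (0.0376), scan day (0.0082) and array weights (0.0374), Ubb (0.0465) and Hsf1 (0.0646) with median centring, Hsp90ab1 with scale normalization (-0.10) and Hspa4 with array weights (-0.0266). Without single arrays Hspa4 ran from -0.0501 to 0.17, Hsp90ab1 from -0.13 to 0.21, Hspb8 from -0.0157 to 0.22, Hspa1l from -0.0739 to 0.0152, Cryab from -0.13 to 0.0716 and Hsf1 from -0.077 to 0.0073. The cause of these shifts was not tested. With 4 and 5 arrays and signals near background for Tyw3 and Hsf2, the number of arrays limits what can be called.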

Other observations

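Vehicle replicate 3, on slide 7, was the highest of the 4 vehicle lungs of day 28 for Hspa1a (1.33), Hsph1 (-0.77), Dnajb1 (-0.44), Herpud1 (1.38), Per1 (1.48), Per2 (0.80), Tsc22d3 (2.41) and Maff (-0.55). No cause was tested. Without this lung 42 genes were called in place of 33, and 26 of the 33 were among them.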
